A study of Mus musculus with 2 samples.

Results

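Glycolytic enzymes were followed in the RNA-seq of CD4 and CD8 double-positive (DP) thymocytes, with a WT and a *Cxxc1*-deficient sample sequenced as 1 library each. The group holds 10 of the 21041 genes of the deposited table and was taken by gene symbol: *Hk1*, *Hk2*, *Gpi1*, *Aldoa*, *Tpi1*, *Gapdh*, *Pgk1*, *Pgam1*, *Eno1* and *Ldha*. All 10 are listed, and 9 of them had a value above 0 in at least 1 library. CXXC1 is a CpG-binding subunit of the SETD1 histone methyltransferase complex, and the study asked which genes depend on it in DP cells. WT mice are described by their sample label as wild type, and in the paper the controls carry the floxed allele without Cre. The deficient mice are *Cxxc1* fl/fl h*CD2*-Cre in the paper, a line of mixed 129 and C57BL/6 origin in which the human *CD2* promoter drives Cre from an early thymocyte stage, whereas the genotype label of the deficient library reads *Cxxc1*+/-. The study's mice were as a rule of weaning age, no treatment is named for these samples, and whether several mice were pooled for a library is not stated. *Cxxc1* itself was at 91 in the WT library and at 50 in the deficient library, a ratio of 0.549 (0.338 to 0.877). Its direction is that of the label, but the log2 ratio of -0.86 lay between the quartiles (-0.90 and -0.16) of the genes with a mean from 50 to 100, and 50 was above the upper quartile of 39 of the olfactory receptor genes in that library. The deletion removes part of the gene and the value covers all of it, so this is a weak check, and the library is called deficient by its label. For DP cells of its deficient mice the paper reports that the floxed band was gone. It also reports *Cxxc1* mRNA as almost undetectable by qPCR, and loss of the protein by western blot.

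Glycolysis is the cytosolic chain of reactions that splits glucose into pyruvate and yields ATP and NADH, and lactate dehydrogenase then turns pyruvate into lactate and restores NAD+. Dividing thymocytes at the stage before DP and activated T cells run glycolysis at a high rate, whereas most DP cells are small and do not divide. The mRNAs of several glycolytic enzymes have been copied back into rodent genomes many times as processed pseudogenes, which lack introns and still resemble the mRNA.

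The deposited values are whole numbers without a named unit. They behaved as reads per length of transcript, since 235 of 395 short genes in WT and 222 of 398 in the deficient library had values at whole multiples of 1 common step (within 0.5 of the printed whole number), against at most 62 genes when the step was moved by up to 15%. From these steps, 1 read per kb is worth 4.06 in WT and 4.7 in the deficient library. Numbers of reads, and the 95% intervals in parentheses, are therefore approximate and rest on the longest annotated coding transcript. The intervals are Clopper-Pearson for a ratio or a fold and exact Poisson for a level, and cover counting error only. They compare 2 libraries and not the genotypes, because no replicate exists, and no p-value is given. The values came to about 1308290 reads on coding genes in WT and 687798 in the deficient library. The median over all genes was 36 in both libraries, and the 1122 olfactory receptor genes, which thymocytes are not known to use, had a median of 22 in WT and 24 in the deficient library with upper quartiles of 35 and 39. Values near these levels cannot be told apart from the background of a library. The DP label held in both libraries: all 8 DP marker genes were above the upper quartile of the olfactory receptor genes, from 1219 to 20778 in WT and from 405 to 5058 in the deficient library. The 4 lists of B cell, erythroid, myeloid and stromal markers lay between 0 and 101 in WT and between 0 and 107 in the deficient library, highest for the myeloid gene *Itgam*, with *Hba-a1* at 0 in both and *Krt8* at 0 in the deficient library. The libraries also differed in genes of the Y chromosome, of which 4 examined were listed at 0 in WT and had 67 (*Eif2s3y*), 39 (*Kdm5d*), 31 (*Ddx3y*) and 17 (*Uty*) in the deficient library. The sex of the mice is not given in the sources used here, and its part in the results was not tested.

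The authors kept only reads of 50 bases that mapped to a unique place in the mouse genome mm9, so the sequence of each enzyme bears on which of its reads could be counted. Windows of 50 bases are shown for 5 members, because they carry the contrast between enzymes with and without copies. All are coding sequence of mm9 on the strand of the gene, and capitals mark the base at which a gene and its copy differ. The window of *Gapdh* (chr6:125112916-125112965, minus strand) occurs at 84 places without a mismatch and at 164 places with up to 2 mismatches. The window of *Pgk1* (chrX:103382590-103382639, plus strand), which opens its coding sequence, occurs at 3 places.
*Gapdh*: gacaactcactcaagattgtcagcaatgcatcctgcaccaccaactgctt
*Pgk1*: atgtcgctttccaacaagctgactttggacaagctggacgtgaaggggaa
The *Ldha* window (chr7:54103001-54103050, plus strand) and the *Gpi1* window (chr7:35015183-35015232, minus strand) occur once without a mismatch. With up to 2 mismatches they occur at 6 and 2 places. The copies shown lie at chr10:29501226-29501275 for *Ldha* and at chr8:5639580-5639629 for *Gpi1*, both on the plus strand. Counted from 1 at the 5′ end of the window, the differences are G37A for *Ldha* and C39G for *Gpi1*.
*Ldha*: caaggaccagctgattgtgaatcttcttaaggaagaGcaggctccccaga
*Ldha* copy: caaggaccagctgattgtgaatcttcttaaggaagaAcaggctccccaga
*Gpi1*: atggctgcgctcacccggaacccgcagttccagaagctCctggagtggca
*Gpi1* copy: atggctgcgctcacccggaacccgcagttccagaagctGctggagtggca
The *Hk2* window (chr6:82723925-82723974, minus strand) opens the coding sequence of an enzyme with hardly any copied sequence and occurs once, also with up to 2 mismatches.
*Hk2*: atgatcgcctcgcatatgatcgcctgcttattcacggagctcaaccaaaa

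Over whole transcripts the members fell into groups by how much of their sequence is found once in mm9. Of all 50-base windows, those that lie in 1 exon and occur once without a mismatch made up 84.8% for *Hk2* and 80.3% for *Hk1*, close to the median of 82.7% over 18574 coding genes. The share was 61.5% for *Aldoa*, 58.3% for *Tpi1*, 58.2% for *Ldha* and 43.1% for *Gpi1*. It was 23.4% for *Eno1*, 12.6% for *Gapdh*, 8.14% for *Pgam1* and 7.09% for *Pgk1*. Thus 8 of the 10 enzymes lay under the lower quartile of 72.1% of all coding genes. When a second place with up to 2 mismatches also counted as a copy, the members' median went from 50.6% to 16.2%, with 84.7% for *Hk2* and 77.4% for *Hk1*, but 27.2% for *Tpi1*, 24.9% for *Ldha*, 17.8% for *Aldoa* and 10.1% for *Gpi1*. Over the merged exons of all coding transcripts, where no window crosses a junction, the median at 2 mismatches was 41.5%, with 46.9% for *Aldoa*, 46.4% for *Eno1* and 42.2% for *Ldha*. How many mismatches the authors allowed is not given in the sources used here.

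**Figure D1:**
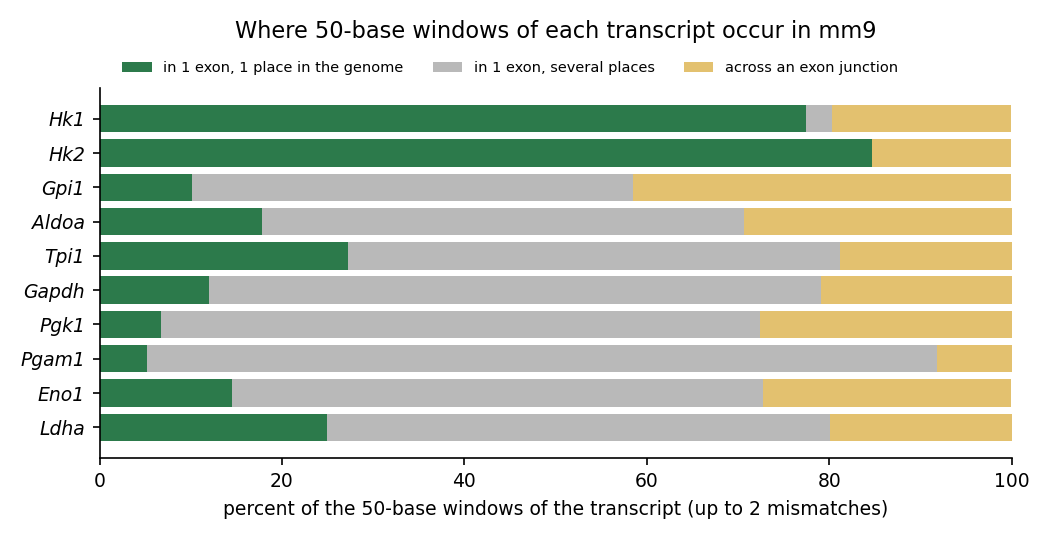
Percent of the 50-base windows of each enzyme's longest coding transcript that lie in 1 exon and occur at 1 place in mm9 with up to 2 mismatches (green), lie in 1 exon and occur at several places (grey), or run across an exon junction (yellow). *Hk1* and *Hk2* are mostly green at 77.4% and 84.7%, and the other 8 enzymes range from 5.16% for *Pgam1* to 27.2% for *Tpi1*.

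The copies were counted as places in the genome that hold at least 100 windows of a transcript with up to 2 mismatches. *Gapdh* had 236 such loci and *Ldha* 16, followed by *Eno1* with 11, *Aldoa* with 9, *Tpi1* and *Pgam1* with 6 each, *Pgk1* with 4, *Gpi1* and *Hk1* with 1 each, and *Hk2* with 0. A within-exon *Gapdh* window had a median of 100 places, against 5 for *Ldha*, 4 for *Pgam1* and *Eno1* and 3 for *Pgk1*. Examples of annotated copies were *Pgam1-ps2* with 94.8% of the *Pgam1* windows, *Pgk1-rs7* with 93.3% of the *Pgk1* windows, *Gm12033*, *Gm13394* and *Gm5559* with 87.8% each of the *Gapdh* windows, and *Gm1840* with 82.8% of the *Gpi1* windows. Because these copies lack introns, they also hold windows that span 2 exons of the gene: every junction window of *Gapdh*, *Pgk1*, *Pgam1* and *Eno1* occurred unspliced in the genome with up to 2 mismatches, as did 86.9% of those of *Ldha* and 85.1% of those of *Gpi1*. For *Hk2* the share was 14.5%, each at 1 place, and such places can be the gene's own exon edges, where a window runs only a few bases past the junction. Of the *Aldoa* copies, *Aldoart1* and *Aldoart2*, which are intact testis-expressed genes, are listed in the table with 24 and 36 in WT and 28 and 33 in the deficient library.

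**Figure D2:**
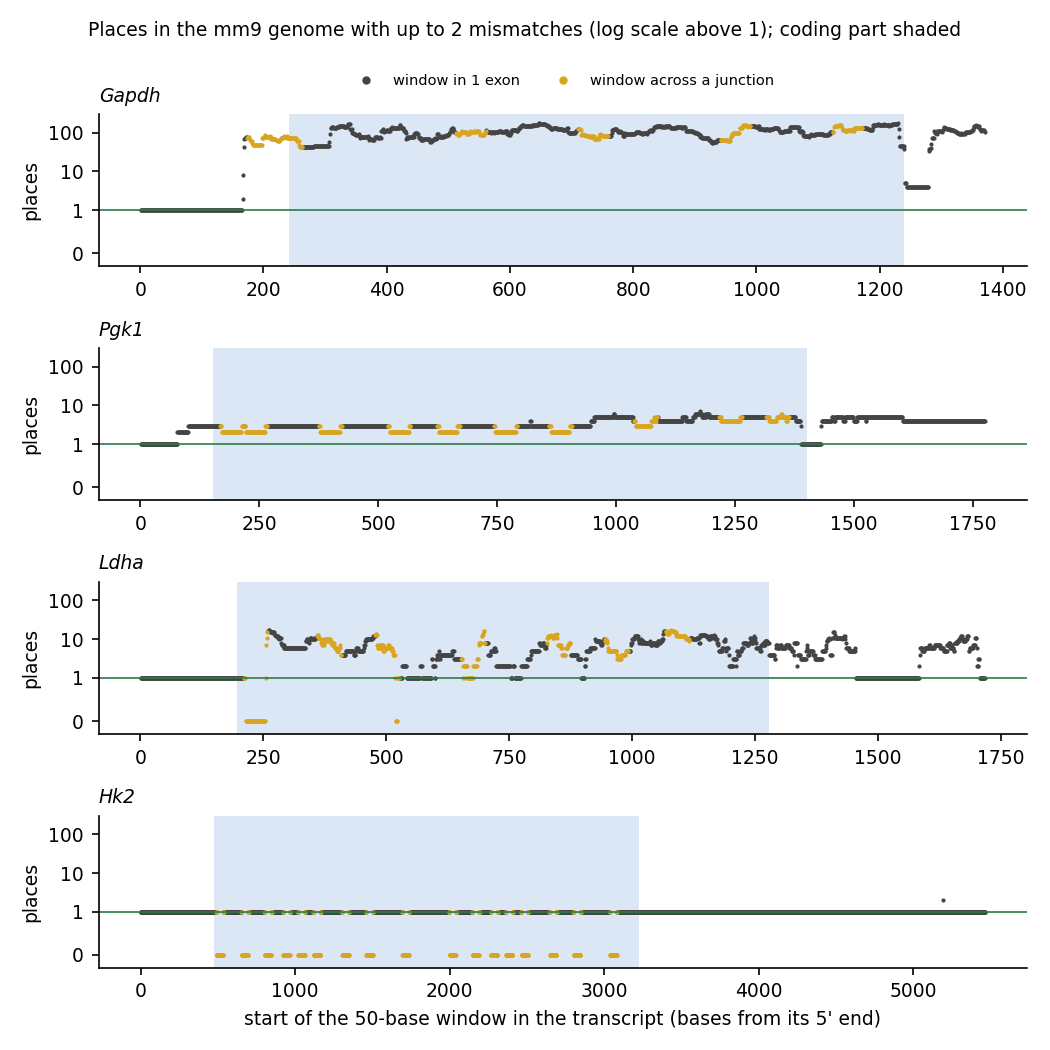
Number of places in mm9 with up to 2 mismatches (log scale above 1) for each 50-base window of *Gapdh*, *Pgk1*, *Ldha* and *Hk2*, by its start in the transcript in bases, with windows in 1 exon in grey, windows across a junction in yellow and the coding part shaded. *Gapdh* reaches 177 places and leaves its 5′ end as the main stretch with 1 place, *Pgk1* reaches 7, *Ldha* reaches 17 with single-place stretches at its 5′ end and near its 3′ end, and *Hk2* stays at 1 place within exons apart from 1 window.

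The same relation held across the whole table as a description. Among 404 coding genes with under 10% of windows placed once, 91.1% were listed at 0 in WT and 92.1% in the deficient library. Among the 12872 genes with at least 75% the shares were 0.319% and 0.42%, and the median value was 40 in both libraries. *Pgk1* and *Pgam1* belong to the former class, *Gapdh* and *Eno1* to the class from 10% to 25%, in which 60.2% of 261 genes in WT and 68.6% in the deficient library were at 0, and *Hk1* and *Hk2* to the class of at least 75%. What share of each enzyme's reads was lost to copies was not tested, since the reads are not analysed here.

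Glucose is trapped in the cell as glucose 6-phosphate by hexokinases, which hold the first step of the chain. *Hk1*, the broadly expressed form (ENSMUSG00000037012, chromosome 10, 61731603 to 61803290, minus strand), had 53 (40.1 to 68.9) in WT and 37 (25.9 to 52.2) in the deficient library. Its value was lower in the deficient library, with a ratio of 0.698 (0.446 to 1.1) from about 56 and 34 reads, and the interval includes equal values. *Hk2*, the form induced in dividing cells (ENSMUSG00000000628, chromosome 6, 82675019 to 82724448, minus strand), had 28 (19.8 to 38.4) in WT and 31 (21.5 to 42.5) in the deficient library, a ratio of 1.11 (0.677 to 1.78). The intervals of *Hk1* and *Hk2* did not overlap in WT, where *Hk1* was higher, and overlapped in the deficient library. Only these 2 members have nearly all of their sequence free of copies, and *Hk2* lay within the range between the quartiles of the olfactory receptor genes in both libraries.

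Glucose 6-phosphate isomerase, aldolase and triosephosphate isomerase carry the sugar through to glyceraldehyde 3-phosphate. *Gpi1* (ENSMUSG00000036427, chromosome 7, 34987141 to 35015300, minus strand) had 21 in WT and 24 in the deficient library, a ratio of 1.14 (0.401 to 2.73) from about 11 and 10 reads. *Aldoa* (ENSMUSG00000030695, chromosome 7, 133938750 to 133942655, minus strand) had 15 and 19, a ratio of 1.27 (0.31 to 4.34) from about 6 reads in each library. *Tpi1* (ENSMUSG00000023456, chromosome 6, 124760604 to 124764314, minus strand) had 13 and 18, a ratio of 1.38 (0.354 to 5.76) from about 5 and 6 reads. All 3 were nominally higher in the deficient library, and no change of less than about the width of these intervals was detectable from these reads. Their deposited values lay at or under the olfactory receptor median in both libraries. Those values miss the reads of copied sequence, so whether the 3 enzymes lie at background cannot be read from them.

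The steps that follow oxidise the triose and make ATP. *Gapdh* (ENSMUSG00000057666, chromosome 6, 125111872 to 125115791, minus strand), the dehydrogenase that the study also used as the qPCR reference, had 6 (0.692 to 20.6) in WT and 10 (2.05 to 29) in the deficient library. These values correspond to about 2 and 3 reads, and the ratio of 1.67 has an interval from 0.199 to 20.8. *Pgk1*, phosphoglycerate kinase (ENSMUSG00000062070, chromosome X, 103382439 to 103399038, plus strand), had 7 in WT, about 3 reads, and 0 in the deficient library. *Pgam1*, phosphoglycerate mutase (ENSMUSG00000011752, chromosome 19, 41986361 to 41993154, plus strand), had 2 in WT, about 1 read, and 0 in the deficient library. *Eno1*, enolase (ENSMUSG00000063524, chromosome 4, 149611061 to 149622988, plus strand), was listed at 0 in both libraries, and a count of 0 allows a value of up to 6 in WT and 6.96 in the deficient library (3 reads). No fold is given for *Pgk1*, *Pgam1* and *Eno1*, since at least 1 library is at 0 and the other at 3 reads or fewer. For *Gapdh* and *Tpi1* an annotated transcript length gave whole numbers of reads in both libraries within rounding, and for *Gpi1*, *Aldoa* and *Ldha* none did. For *Pgk1* and *Pgam1* it did so in WT, while their 0 in the deficient library is whole at any length.

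*Ldha*, the subunit of lactate dehydrogenase that prevails in glycolytic tissue (ENSMUSG00000063229, chromosome 7, 54102501 to 54110996, plus strand), was the highest member in both libraries. It had 135 (103 to 175) in WT and 103 (73.9 to 142) in the deficient library, from about 59 and 39 reads. The ratio was 0.763 (0.498 to 1.17), so that *Ldha* was nominally lower and its intervals in the libraries overlapped. It was the only member above the upper quartile of the olfactory receptor genes in both libraries, *Hk1* being above it in WT only. In the deposited values, which miss the reads of sequence with copies, *Ldha* stood above all other members beyond counting error in each library. Below it, *Hk1* and *Hk2* in WT were the only neighbours in the order of levels whose intervals did not overlap.

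**Figure D3:**
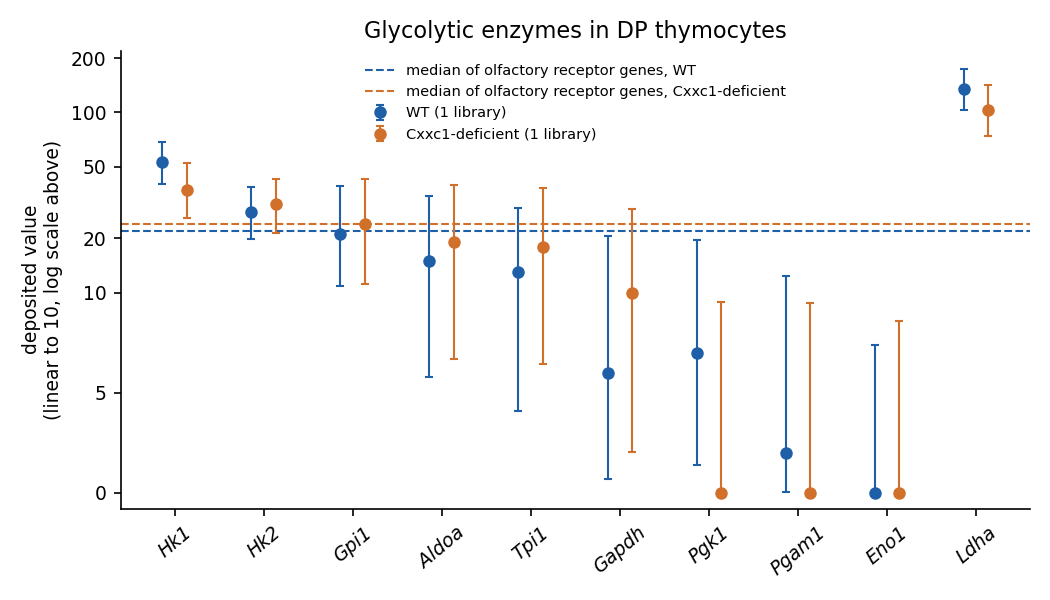
Deposited value of each enzyme (axis linear to 10 and logarithmic above) in the WT library (blue) and the *Cxxc1*-deficient library (orange), with 95% counting intervals and dashed lines at the median of the olfactory receptor genes in each library. *Ldha* sits at 135 and 103, *Hk1* at 53 and 37, and from *Gpi1* to *Eno1* the points lie at or under the dashed lines at 22 and 24.

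A value spread over the sequence that can be placed gives another view of the order. Per window placed once without a mismatch, *Ldha* came to 232 (177 to 300) in WT and 177 (127 to 244) in the deficient library, *Hk1* to 66 and 46.1, and *Hk2* to 33 and 36.6. *Gpi1* came to 48.8 (25.4 to 91) and 55.7 (25.7 to 98.6), and *Gapdh* to 47.5 (5.48 to 164) and 79.2 (16.2 to 230). No level of the olfactory receptor genes is given on this scale, so these levels were not set against a background. *Pgk1* in WT came to 98.7 (19.4 to 275) on this scale, whereas 3 reads would come to 109 in the deficient library and the 95% upper limit of its 0 reads is 134, so the libraries could not be told apart for *Pgk1*. *Eno1* is listed at 0, and 3 reads would come to 25.6 in WT and 29.7 in the deficient library on this scale, or to 41.4 and 48 with up to 2 mismatches counted as copies, which is above the values of *Hk2*. Its level under these limits cannot be given. With up to 2 mismatches counted as copies, a setting chosen after the data were seen, *Ldha* came to 543 and 414, *Gpi1* to 208 and 237 and *Aldoa* to 84.3 and 107. Without mismatches, the intervals of *Pgk1* in both libraries and of *Gapdh* in the deficient library overlapped those of *Ldha*. With up to 2 mismatches, the interval of *Gpi1* in the deficient library (110 to 420) overlapped that of *Ldha* (297 to 571). The lead of *Ldha* in the deposited values thus did not exceed counting error against every member on these scales. Either scale assumes that no read was placed outside these windows.

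Taken over the members, 4 of the 9 with a value above 0 were lower in the deficient library (*Hk1*, *Pgk1*, *Pgam1* and *Ldha*) and 5 were higher, with a median log2 ratio of 0.15 after values were raised to at least 1. Over all 20125 genes above 0, 59.9% were lower, with a median log2 ratio of -0.20. At a threshold of 2-fold, 2 members were lower, *Pgk1* and *Pgam1*, which pass only because their 0 was raised to 1 and which rest on 3 reads or fewer, and 0 were higher, against 17.4% and 5.89% of all genes. Among the 13996 genes with a mean of both libraries under 50, the class that holds 8 of the members, 47.8% were lower, 9.75% passed 2-fold downwards and 8.22% upwards, with a median log2 ratio of 0.00. Of these 8 members, 3 were lower and 2 passed 2-fold downwards, both only through the floor. With 8 genes, no difference from the class can be read from these counts. *Ldha*, with a mean of 119, falls in a class of 2472 genes with a mean of at least 100, of which 95.2% were lower, 56.8% passed 2-fold downwards and 0.485% upwards. The median log2 ratio of that class was -1.08, that of *Ldha* was -0.39, and 300 of the 2472 genes (12.1%) had a ratio at least as high.

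**Figure D4:**
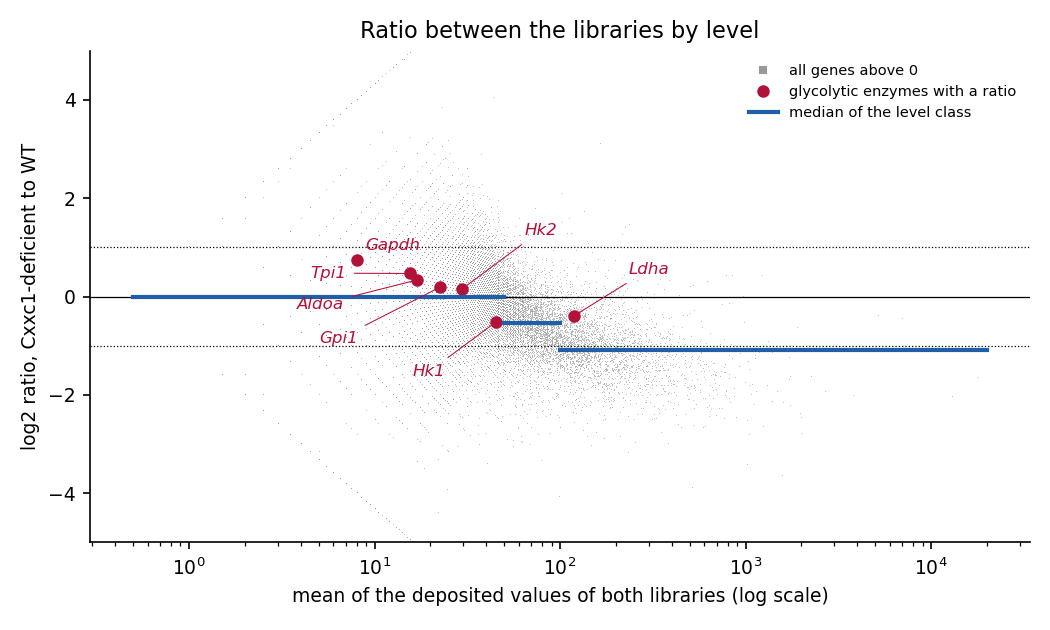
Log2 ratio of *Cxxc1*-deficient to WT values against the mean of both libraries (log scale) for all genes above 0 (grey, values raised to at least 1) and for the 7 enzymes given a ratio (red), with dotted lines at 2-fold and blue bars at the median of each level class. *Ldha* at -0.39 lies above the median of -1.08 of its class, and the other 6 enzymes lie at means of 45 or less, where the class median is 0.00.

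The direction of the best counted members depended on how the libraries were scaled. *Hk1* and *Ldha* were lower as deposited, and had log2 ratios of 0.48 and 0.61 when the libraries were given a common median among genes whose mean was 100 or more, and of 0.04 and 0.17 with the same sum after the 100 highest genes were left out. By themselves these scalings shifted the all-gene median by 1.00 and 0.56 on the log2 scale. *Hk2*, *Gpi1*, *Aldoa* and *Tpi1* were higher as deposited and in the 4 other scalings, and were lower when the libraries were scaled to the same *Gapdh* value, with -0.59, -0.54, -0.40 and -0.27. That scaling rests on 2 and 3 reads and moved the median of all genes by -0.74. In bulk RNA, fewer cells of a type and less RNA per cell cannot be told apart.

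Other isozymes and neighbouring pathways were taken from 6 lists of 55 genes, all of them listed in the table. Of these genes 36 were lower in the deficient library, 18 were higher and 1 was equal, with a median log2 ratio of -0.44, 14 past 2-fold downwards and 2 upwards. Among the 13 whose mean reached 100, 12 were lower and 8 passed 2-fold, and among the 34 whose mean was under 50, 17 were lower and 3 passed 2-fold downwards. The lists thus followed the level of their genes much as the table did, at 95.2%, 56.8%, 47.8% and 9.75% for the same counts. Beside the counts of each single list below stands the share over all genes above 0, of which 59.9% were lower, with a median log2 ratio of -0.20.

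The 18 other isozymes of the glycolytic steps had 10 lower and 8 higher genes and a median log2 ratio of -0.16. *Ldhb*, the lactate dehydrogenase subunit of oxidative tissue, had 207 in WT and 47 in the deficient library, a 4.4-fold reduction (2.43 to 8.78). Its ratio of 0.227 (0.114 to 0.411) did not overlap that of *Ldha*. *Ldhb* thus had the higher value of the pair in WT and *Ldha* in the deficient library, an order within each library that no scaling changes. This order rests on about 67 and 13 reads of *Ldhb* in the WT and deficient libraries, against 59 and 39 of *Ldha*. No counting interval was computed for the level of *Ldhb*, so whether the order within a library exceeds counting error was not tested. As for *Ldha*, only part of *Ldhb* can be placed, 48.6% of windows without a mismatch and 16.3% with up to 2, and the same windows were available in both libraries. The phosphofructokinases, which commit the sugar to glycolysis, differed among themselves: the platelet form *Pfkp* had 124 in WT and 30 in the deficient library, a 4.13-fold reduction (2.75 to 6.69), whereas the liver form *Pfkl* had 28 and 29 and the muscle form *Pfkm* 37 and 32. *Pfkp* was lower in all 9 settings that were run, *Pfkl* turned lower with the same *Gapdh* value and with the olfactory receptor median subtracted, and *Pfkm* turned higher in 3 scalings. *Pkm*, pyruvate kinase, had 35 in WT and 17 in the deficient library, a 2.06-fold reduction (0.856 to 5.41), with 14% of its windows placed once with up to 2 mismatches. *Bpgm*, bisphosphoglycerate mutase, had 212 and 80, a 2.65-fold reduction (1.81 to 3.9). *Pgam2*, the muscle mutase, was the gene of this list that was at least 2-fold higher, with 31 in WT and 83 in the deficient library and a ratio of 2.68 (1.06 to 9.12) from about 6 and 15 reads. The upper quartiles of the olfactory receptor genes were 35 in WT and 39 in the deficient library. *Pkm* and *Pfkl* in both libraries, *Pfkp* and *Pfkm* in the deficient library and *Pgam2* in WT lay at or under them, so these values cannot be told apart from background. The value of *Pkm*, with 45.3% of its windows placed once without a mismatch, misses reads of copied sequence. Whether *Pkm* itself lies at background therefore cannot be read from it.

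Of the 6 genes of glucose and lactate transport, 4 were lower and 2 were higher, with a median log2 ratio of -0.58. *Slc16a1*, which encodes the lactate carrier MCT1, had 260 in WT and 93 in the deficient library, a 2.8-fold reduction (2.18 to 3.58), and *Bsg*, which encodes its chaperone basigin, had 196 and 87, a 2.25-fold reduction (1.51 to 3.56). Among 7 regulators of glycolytic flux, 5 were lower and 2 higher, with a median log2 ratio of -0.47. *Hif1a*, the oxygen-regulated activator of many glycolytic genes, had 282 and 155, a 1.82-fold reduction (1.49 to 2.21), and its partner *Arnt* had 216 and 92, a 2.35-fold reduction (1.81 to 3.03). *Pfkfb2*, which makes the allosteric activator of phosphofructokinase, had 116 and 84, a 1.38-fold reduction (1.11 to 1.74). *Myc*, an activator of glycolytic genes in dividing lymphocytes, had 91 in WT and 192 in the deficient library, a ratio of 2.11 (1.5 to 3.03). It was higher in all 9 settings, with its lowest log2 ratio of 0.34 at the same *Gapdh* value. It is 1 of the 12 genes, 0.485% of its level class, that were at least 2-fold higher.

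Pyruvate dehydrogenase, which passes pyruvate on to the mitochondrial citrate cycle, had 9 of its 10 list genes lower and a median log2 ratio of -0.83. Of these 10 genes, 4 had a mean of at least 100 and all 4 were lower. In that class 95.2% of all genes were lower, with a median log2 ratio of -1.08. The subunit gene *Pdha1* had 353 in WT and 94 in the deficient library, a 3.76-fold reduction (2.8 to 5.1). *Pdhb* had 46 and 13, a 3.54-fold reduction (1.2 to 15), with 10.5% of its windows placed once with up to 2 mismatches. The reductions were 2.39-fold for *Dlat* (146 and 61), 1.9-fold for *Dld* (358 and 188) and 2.47-fold for *Pdhx* (84 and 34), which encode the other subunits, and 1.67-fold for the inhibitory kinase *Pdk1* (162 and 97). In the pentose phosphate pathway, which branches off at glucose 6-phosphate and makes NADPH and ribose, 6 of 7 genes were lower with a median log2 ratio of -0.75. Of these 7 genes, 5 had a mean under 50 and 4 of those were lower, against 47.8% of all genes of that class. *Pgd* had 88 and 38, a 2.32-fold reduction (1.31 to 4.2), *Rpe* had 185 and 80, a 2.31-fold reduction (1.64 to 3.34), and *Tkt* had 50 and 25, a 2-fold reduction (1.12 to 3.82). The values of *Pdhb*, *Pdhx*, *Pgd* and *Tkt* in the deficient library lay under the upper quartile of 39 of its olfactory receptor genes. The 7 gluconeogenic genes lay between 22 and 48 in both libraries, with 2 lower, 4 higher and 1 equal and a median log2 ratio of 0.10. Of these genes *Hif1a*, *Dld* and *Pdk1* turned higher with that common median among high genes, and *Pfkfb2* did so also with the same sum without the 100 highest genes. The others named as lower in this and the preceding paragraph were lower in all 9 settings. Of these settings, the deposited values and the pseudocounts keep the direction of any ratio. The same *Gapdh* value, with its factor of 0.6, only lowers it. Under that common median of high genes, *Tkt* was at -0.00, *Bsg* at -0.18, *Pgd* and *Rpe* at -0.21, *Arnt* at -0.23 and *Dlat* at -0.26. The rest were from -0.31 (*Pdhx*) to -0.91 (*Pdha1*), and counting intervals were not recomputed under the scalings.

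**Figure D5:**
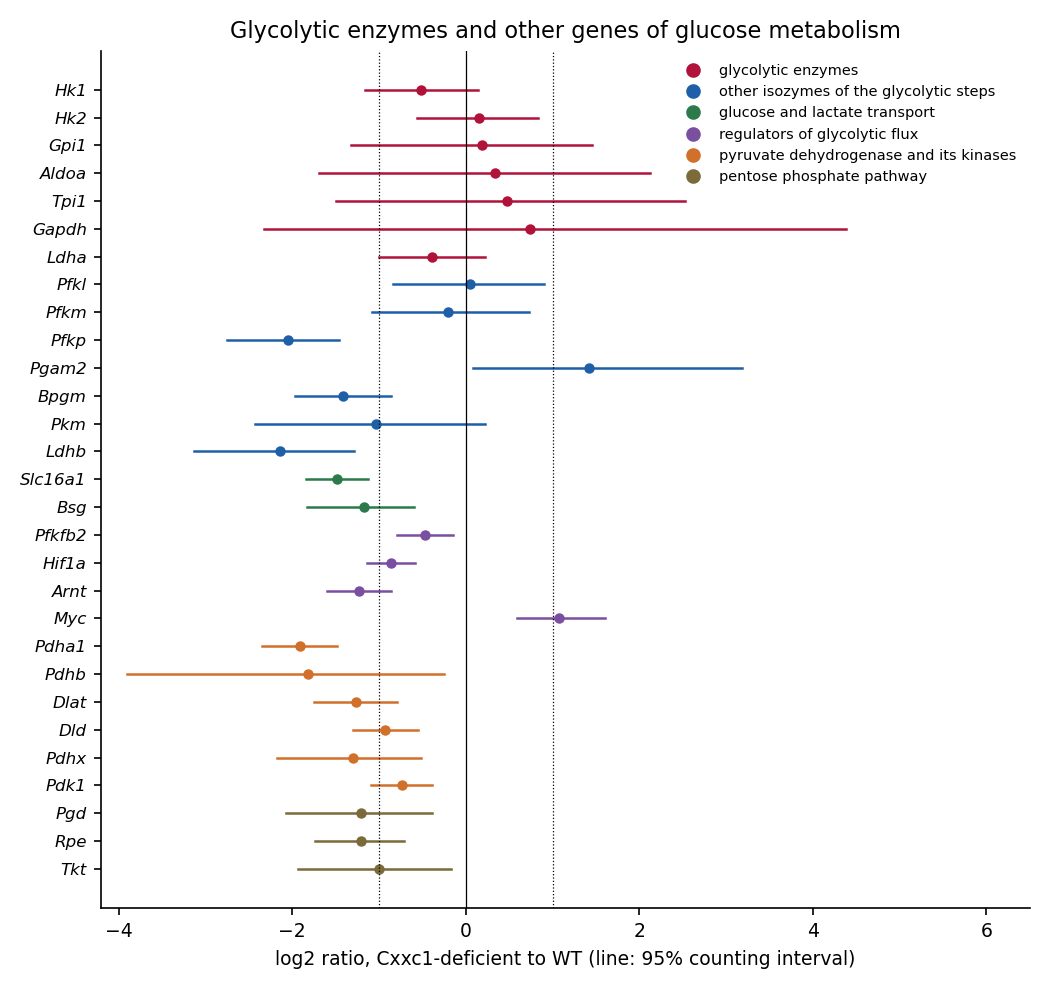
Log2 ratio of *Cxxc1*-deficient to WT values with 95% counting intervals for the 7 enzymes with a ratio (red) and the 22 named genes of the neighbouring pathways, coloured by list, with dotted lines at 2-fold. The intervals of all 7 enzymes cross 0, whereas *Pfkp*, *Ldhb* and *Pdha1* lie near -2 with intervals under -1, and *Myc* and *Pgam2* lie above 0.

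The promoters of the 10 members, from RefSeq on GRCm38.p6 and not on the build of the files, are described as sequence without a readout in these data. The members have 16 annotated promoters of 250 bases before to 50 bases after a start site, with a median of 22 CpG dinucleotides, against 7 over all 32851 promoters. The motif ACGTG, the core of hypoxia-response elements, was present on either strand in 8 of the 16 (50%) and in 19.6% of all promoters. ACGTG itself holds a CpG, and these shares were not compared among promoters of like CpG count, so no enrichment of the motif can be read from them. The motif CACGTG, an E-box that MYC can bind and that contains ACGTG, was present in 1, an *Ldha* promoter (6.25%), and in 7.15% of all promoters. Promoters of 1 gene can overlap, and a match of these letters is not a binding site.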

How the data were processed

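The authors isolated total RNA from DP thymocytes with TRIzol, prepared mRNA libraries, sequenced reads of 50 bases and kept reads mapped uniquely to mm9. The labels list CASAVA 1.8.2, Bowtie 1.0.1 and Partek without their roles. The gene annotation, the mismatches allowed and the treatment of reads across exon junctions are not given in the sources used here. Each deposited value is a score without a named unit: 1 normalized number for a gene and library, rounded to a whole number by the authors and taken as deposited. Samples were grouped by their titles. The other columns of the table that hold samples number 0.

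Ratios of *Cxxc1*-deficient to WT values were taken with a floor of 1, and calls used the study's 2-fold threshold. No test was run, since each genotype has 1 library. The value of 1 read was fitted on short genes (under 700 bases) with 1 annotated GENCODE vM1 transcript on NCBIM37, the assembly of mm9. Each 50-base window of the longest coding transcript was searched on both strands of mm9 without mismatches and, for members and lists, with up to 2. A copy locus gathers places within 5 kb. The read fit and the search were tested on simulated data with known answers. Named genes were all members, list genes with a mean of at least 100 or a 2-fold change at a mean of at least 20, *Pfkl*, *Pfkm*, *Pfkp*, *Pkm* and *Cxxc1*. Genes of the Y chromosome and the printed windows were chosen after values were seen. The members and lists were chosen with earlier results of these data known. Alternatives were 5 scalings, background subtraction, pseudocounts, filters, thresholds and transcript models. Scripts used Python 3.11.15 with numba 0.67.0, numpy 2.4.6, matplotlib 3.10.9, pandas 2.3.3 and scipy 1.17.1.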

Additional observations from a re-analysis of the deposited data

How the results depend on the processing

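The number of members lower in *Cxxc1*-deficient cells, 4 as deposited, was 2 with the same sum without the 100 highest genes, with a common median among genes whose mean was 100 or more, after subtraction of the olfactory receptor median and among the 4 members with a mean of at least 20, and 8 with the same *Gapdh* value (*Gapdh* left out). The number at least 2-fold lower, 2 as deposited, was 4 with the same *Gapdh* value, 1 after subtraction and at a 3-fold threshold, and 0 with a pseudocount of 10. The members' median log2 ratio of 0.15 was 0.53 after matching of the 75th percentiles, 0.71 with the same sum, 1.14 with a common median among genes whose mean was 100 or more and 0.00 after subtraction, and turned negative, -0.80 with the same *Gapdh* value and -0.12 among members with a mean of at least 20. The list genes lower, 36 as deposited, were 23 with the same sum and 14 with a common median among genes whose mean was 100 or more. The moves under scalings follow from their factors of 1.31, 1.48, 2 and 0.6 on the deficient library, and those under the filter from fewer genes. For the other settings the cause was not tested. The median share of windows placed once, 50.6%, was 16.2% with up to 2 mismatches, and 41.5% at 2 mismatches over merged exons of all coding transcripts. With the upper quartile of the olfactory receptor genes as the reference, chosen after seeing the data, 1 member in place of 3 was above it in *Cxxc1*-deficient cells. The value of 1 read was 4.06 and 4.7 also with the longest transcript of every gene. Of 72 log2 ratios of members under alternatives, 59 stayed within their counting interval, or at the same value where no interval was given, and 13 did not. This count is no measure of stability. For *Pgk1* and *Pgam1* a scaling leaves the 0 of the deficient library at 0, so their value could not move. The intervals of *Gpi1*, *Aldoa*, *Tpi1* and *Gapdh* are wide enough to hold every setting, with *Gapdh* running from 0.00 to 1.73. Of the 10 members, 7 had about 11 reads or fewer per library. What part the depth and the copied sequence had in this was not tested. No paired analysis was possible because WT and deficient cells were each sequenced as 1 library.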
